A study of Homo sapiens with 6 samples.

Results

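The genes described here are 10 members of immediate-early gene families, taken by symbol from the 28395 genes in the table of HCC827 cells. They are the zinc finger transcription factors EGR1, EGR2 and EGR3, the immediate early response genes IER2, IER5 and IER5L, the RNA-binding proteins ZFP36, ZFP36L1 and ZFP36L2, and the small MAF factor MAFF. No NR4A gene is among the 10, and NR4A1, NR4A2 and NR4A3 are given below with other early genes. HCC827 is an established human lung adenocarcinoma line with an activating deletion in EGFR, grown in medium with serum. There were 2 groups of 3 libraries each, one group treated with the solvent DMSO and the other with 1 μM erlotinib, a small molecule inhibitor of the EGFR kinase, both for 24 h. The comparison asks how the mRNAs of these genes differed after a day of EGFR inhibition in this single line at this single time.

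Immediate-early genes are switched on within minutes of a growth factor signal, without new protein synthesis. The EGFR kinase acts on many of them through RAS and the ERK kinases, which phosphorylate ternary complex factors such as ELK1 that sit with SRF on CArG boxes in promoters. The products are mostly transcription factors, or proteins that bind AU-rich elements in the 3′ untranslated region (UTR) of mRNAs and speed their decay, and many of the mRNAs are themselves short-lived. A library taken at 24 h shows a standing level and not the first wave.

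The values are signal, which is the number of reads of a gene divided by 1 size factor per library. The libraries held 20858083, 24641819 and 21172884 reads on genes in DMSO (libraries 1 to 3) and 21944007, 20760204 and 21678395 with erlotinib (libraries 4 to 6, as the columns are numbered). Signal compares mRNAs relative to each other, so that less of an mRNA per cell and fewer cells that make it cannot be told apart. The test covered 14215 genes, those whose mean signal reached 10, and 8 of the 10 members were among them. Of all tested genes 35.4% were lower and 35.3% higher with erlotinib at an adjusted p under 0.05 (limma, Benjamini-Hochberg), or 70.7% in either direction. Against this background 5 of the 8 tested members were lower (62.5%) and 3 were higher (37.5%). Scaled to total counts, 3 members were lower and 3 higher, beside 3952 lower and 6182 higher genes in all. The 3 DMSO and 3 erlotinib libraries did not overlap for any of the 8, as for 73.6% of all tested genes (36.9% lower and 36.7% higher).

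The label of the line was checked against markers. The epithelial genes EPCAM, KRT8, KRT18, KRT19 and CDH1 had a summed signal of 159700, 139800 and 147900 in the DMSO libraries and of 109300, 109500 and 109300 in the erlotinib libraries. KRT18 fell by 1.25, KRT8 by 0.83 and KRT19 by 0.39 on the log2 scale (adjusted p at most 3.3e-04, limma), while EPCAM (-0.05) and CDH1 (0.14) did not pass the test. Fibroblast markers summed to 73.7, 75.2 and 109 in DMSO and to 260.2, 223 and 215 with erlotinib. Nearly all of this was COL1A1 (77.7 and 216), and COL1A2, COL3A1 and DCN had at most 3 reads in every library. Endothelial markers summed to at most 34.0 in DMSO, where PECAM1 was highest (mean 15.7), and to at most 58.1 with erlotinib, where VWF was highest (27.4, against 3.94 in DMSO). Leukocyte markers summed to at most 36.4 in any library, with CD14 highest with erlotinib (mean 11.8, against 6.60 in DMSO).

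**Figure D1:**
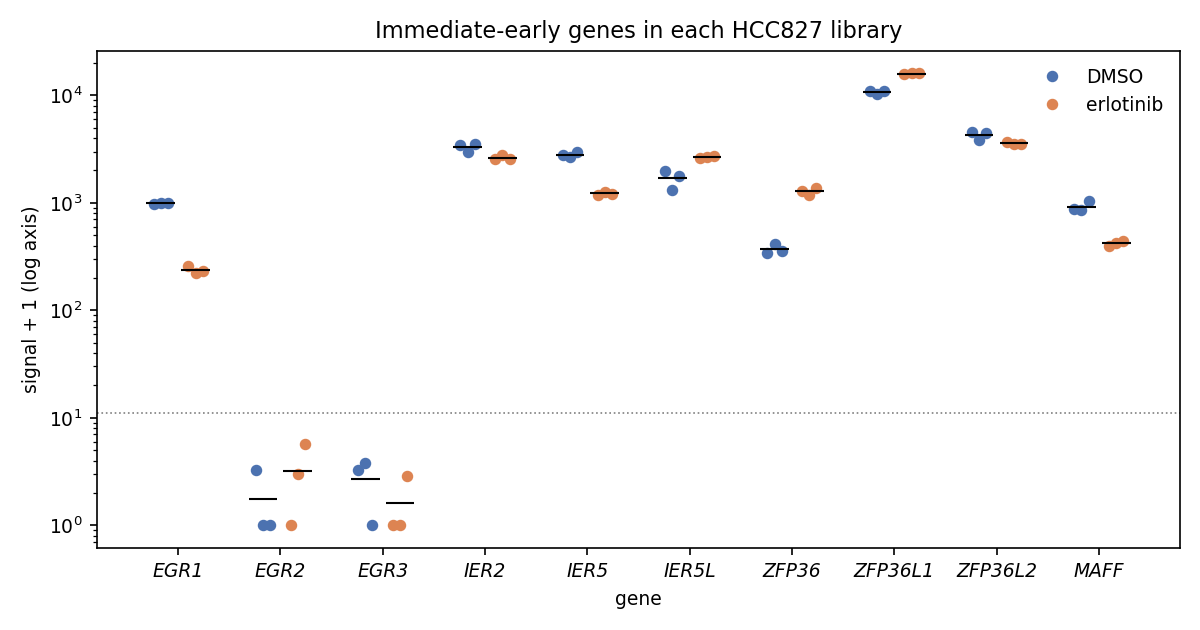
Signal + 1 of the 10 genes (log axis) in the 3 DMSO and 3 erlotinib libraries, with a point per library and a line at the mean; the dotted line marks the minimum mean signal of 10 for testing. EGR1, IER5 and MAFF lie lower with erlotinib and ZFP36, ZFP36L1 and IER5L higher, while EGR2 and EGR3 lie below the line in all 6 libraries.

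EGR1 fell most of the set. It encodes a zinc finger activator that binds GC-rich sites and is a classical target of ERK signalling. EGR1 (Entrez gene 1958) lies on chromosome 5 at 138465479 to 138469303 of GRCh38, the build used throughout, and its signal was 978, 994 and 985 in the DMSO libraries and of 256, 222 and 229 in the erlotinib libraries. The DMSO libraries lay close together, and every erlotinib library was far below them. The means were 985 ± 7.94 and 236 ± 17.8 (SD, n = 3 each), a 4.18-fold lower level with erlotinib. The log2 fold change was -2.06 (standard error 0.10, 95% confidence interval -2.28 to -1.84, adjusted p = 3.7e-13, limma with Benjamini-Hochberg adjustment), and 2.33% of all tested genes had a lower one.

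The 250 bases before the annotated start of EGR1 are shown because they hold 2 CArG boxes, the sites of SRF. They are chr5:138465229-138465478 of GRCh38.p14, plus strand, from RefSeq, with the CArG boxes and 1 match to the EGR motif GCGNGGGCG in capitals.
EGR1: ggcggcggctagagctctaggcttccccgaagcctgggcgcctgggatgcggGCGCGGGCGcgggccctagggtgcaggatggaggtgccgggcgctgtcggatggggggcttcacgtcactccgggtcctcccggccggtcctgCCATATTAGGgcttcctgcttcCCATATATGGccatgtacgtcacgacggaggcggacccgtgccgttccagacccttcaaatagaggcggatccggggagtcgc
Counted from the start, the CArG boxes lie at -105 to -96 and -83 to -74, and the EGR match at -198 to -190. A CArG box was found in 1.29% of the 35116 promoter windows of this kind (250 bases before to 50 after a start), and 2 or more in 0.031%. GCGNGGGCG, searched on both strands, was found in 9.43%. RefSeq windows were matched for EGR1, EGR2, IER2, IER5, IER5L, ZFP36, ZFP36L1 and MAFF. No window was read for EGR3 or ZFP36L2, so nothing can be said of motifs in these genes. Besides EGR1, a CArG box was found in 1 of the 3 windows of EGR2, and GCGNGGGCG in a window of EGR2 (8 to 16) and of ZFP36L1 (6 to 14), both after the start. A match to these letters is a description of the sequence, not a measured binding site.

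EGR2 and EGR3 were close to absent under both conditions. EGR2, which is best known for its role in myelinating cells, had 2, 0 and 0 reads in the DMSO libraries and 0, 2 and 5 with erlotinib. EGR3, which is induced through growth factor and antigen receptors, had 2, 3 and 0 reads in DMSO and 0, 0 and 2 with erlotinib. A count of 0 allows up to 3 reads in a library, which is a signal of 2.77 to 3.40 here and covers counting error only, so no difference was detectable at this depth. Of the summed signal per kilobase of exon of the EGR genes, EGR1 supplied 99.8% ± 0.17 in DMSO and 99.0% ± 1.1 in the erlotinib libraries (SD, n = 3 each). That sum was 315 ± 2.37 in DMSO and 75.8 ± 5.21 after erlotinib (SD, n = 3 each, exact two-sided permutation p = 0.1, the smallest that 3 against 3 libraries allow). EGR4, the remaining paralogue, had at most 6 reads in any library.

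Next to EGR1 stand the proteins that act on it or are driven by it. NAB1 and NAB2 encode corepressors that bind EGR proteins, and NAB2 is itself an EGR1 target. NAB1 rose by 0.34 (adjusted p = 0.0029, limma) and NAB2, at 634 ± 47.9 in DMSO and 550.0 ± 11.6 after erlotinib (SD, n = 3 each), had a log2 fold change of -0.20 (adjusted p = 0.0746, limma). Over these 2 genes and 11 reported EGR1 targets, 2 were lower, 5 higher and 6 neither, and the median log2 fold change was 0.12 against 0.017 over all tested genes. The lower genes were F3, the tissue factor that starts coagulation (log2 fold change -2.69), and TGFB1, a cytokine (-0.60). The largest rises were those of FN1, the matrix protein fibronectin (signal 1693 and 5153), and GDF15, a stress-induced cytokine (log2 fold change 1.44). The list thus held genes of both directions, and PDGFA, PDGFB, MMP14 and CDK5R1 were among those that did not pass the test (adjusted p 0.331 to 0.845, limma).

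Of 7 genes of SRF and its cofactors, 4 were lower (57.1%), 2 higher (28.6%) and 1 neither, beside 35.4% and 35.3% of all tested genes. The median log2 fold change of the 7 was -0.20. FHL2, a LIM-domain cofactor of SRF and of other factors, fell by 1.27 and ELK3, a ternary complex factor, by 0.85 on the log2 scale. ELK1, the best known ternary complex factor, fell by 0.75 (adjusted p = 1.6e-07, limma). MRTFB and MRTFA, the actin-regulated cofactors, rose by 0.42 and 0.29 (adjusted p at most 0.0062, limma). SRF fell by only 0.20 (adjusted p = 0.0217, limma). Its adjusted p was 0.101, 0.0684 and 0.114 without DMSO library 1, DMSO library 3 and erlotinib library 4, and 0.828 when libraries were scaled to total counts, where the log2 fold change was -0.02.

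The IER genes moved in different directions. They encode short proteins that share an N-terminal domain, and IER5 is known to bring the B55 subunit of the phosphatase PP2A to the heat shock factor HSF1. IER5 (Entrez gene 51278, chromosome 1, 181088700 to 181092900) had a signal of 2775, 2696 and 2973 in DMSO and of 1187, 1272 and 1212 with erlotinib. There was a wide gap between the groups, with means of 2815 ± 143 and 1224 ± 43.8 (SD, n = 3 each). This is a log2 fold change of -1.20 (standard error 0.07, 95% confidence interval -1.35 to -1.05, adjusted p = 7.7e-12, limma).

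IER5L (Entrez gene 389792, chromosome 9, 129175552 to 129178261), the paralogue closest in name, went the other way. Its signal was 1974, 1321 and 1779.9 in DMSO and 2611, 2689.7 and 2713 with erlotinib. DMSO library 2 lay well below the other DMSO libraries, and all erlotinib libraries lay above the 3. The means were 1691.5 ± 335.5 and 2671 ± 53.6 (SD, n = 3 each), 1.58-fold higher with erlotinib. The log2 fold change was 0.68 (standard error 0.10, 95% confidence interval 0.46 to 0.90, adjusted p = 6.5e-06, limma) and 0.51 without DMSO library 2. In the GENCODE annotation 1132 of its 2710 exonic bases are shared with IER5L-AS1 on the opposite strand. The strand that was counted is not given in the sources used here, and no counted gene was matched to IER5L-AS1.

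IER2 (Entrez gene 9592, chromosome 19, 13150411 to 13154911) was the most abundant of the 3 in DMSO and changed least. Its signal was 3485, 2962 and 3499 in DMSO and 2541, 2782 and 2573 with erlotinib. The groups did not overlap, but the gap between them was smaller than the spread within DMSO. The log2 fold change was -0.33 (standard error 0.08, 95% confidence interval -0.49 to -0.17, adjusted p = 6.5e-04, limma). Scaled to total counts it was -0.15 and no longer passed (adjusted p = 0.0802, limma). Exonic bases of IER2 are shared with opposite-strand noncoding genes as well, 662 with one and 946 with another. Neither noncoding gene was matched to a counted gene.

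The make-up of the IER family differed between the groups. IER5L supplied 28.9%, 23.3% and 26.3% of the summed signal per kilobase of exon of the 3 IER genes in the DMSO libraries, and 46.5%, 45.1% and 47.1% in the erlotinib libraries. IER5 supplied 28.4% ± 2.2 and 13.7% ± 0.099, and IER2 45.5% ± 0.55 and 40.1% ± 0.91 (SD, n = 3 each). For each of the 3 shares the groups did not overlap (exact two-sided permutation p = 0.1 each, the smallest possible). The share of IER2 differed by -5.36 percentage points here and by -2.07 with reads not divided by length. The ratio of IER5 reads to IER5L reads was 1.41, 2.04 and 1.67 in DMSO and 0.455, 0.473 and 0.447 with erlotinib. In contrast, the summed signal per kilobase of the 3 genes overlapped between the groups, at 2371 ± 243 and 2132 ± 64.0 (SD, n = 3 each, exact two-sided permutation p = 0.3). The direction of this small difference turned with scaling to total counts, where the ratio of erlotinib to DMSO was 1.02 in place of 0.899.

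Of 12 genes tied to IER5 through PP2A and the heat shock response, 8 could be tested. In limma 7 were lower (87.5%), 0 higher and 1, BAG3, neither, beside 35.4% lower and 35.3% higher of all tested genes. The median log2 fold change of the list was -0.80. By another tool, DESeq2 on the recovered reads, the number of higher genes was also 0, and it was 1, BAG3, with scaling to total counts. No gene of the list had a positive log2 fold change at an unadjusted p under 0.05. HSP90AA1 and HSPH1, which encode cytosolic chaperones, fell most, by 2.13 and 1.89 on the log2 scale. HSPA8 (-1.30), DNAJB1 (-0.92) and the B55 subunit PPP2R2A (-0.69) followed, and HSF1 itself fell by 0.43 (adjusted p = 5.9e-04, limma). BAG3, a cochaperone, had a log2 fold change of 0.06 ( adjusted p = 0.469, limma). The inducible HSPA1A was listed at 0 in all libraries and HSPA1B had 1 read in a single one. Their transcripts each align to 4 alternate contigs of the genome over at least 90% of their length at an identity of at least 97%, and only uniquely mapped reads were counted.

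**Figure D2:**
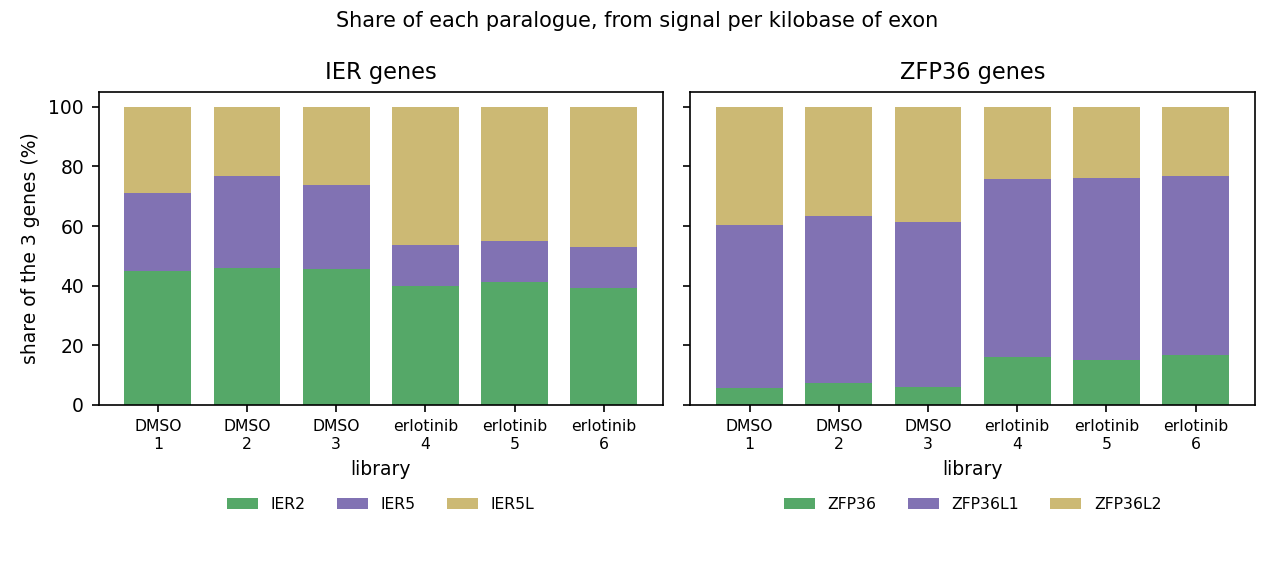
Share (%) of each paralogue in the summed signal per kilobase of exon of the 3 IER genes and of the 3 ZFP36 genes, with a bar per library. IER5L lies at 23.3% to 28.9% in DMSO and at 45.1% or more with erlotinib, and ZFP36 at 7.32% or less and at 14.9% or more.

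ZFP36 rose most of the set. It encodes tristetraprolin, a zinc finger protein that binds AU-rich elements and recruits the CCR4-NOT deadenylase to the mRNA. ZFP36 (Entrez gene 7538, chromosome 19, 39406847 to 39409407) had a signal of 340.3, 413 and 357 in DMSO and of 1293, 1184 and 1361 with erlotinib. Every erlotinib library was thus well above every DMSO library. With means of 370.4 ± 38.1 and 1279 ± 89.3 (SD, n = 3 each), ZFP36 was 3.45-fold higher, a log2 fold change of 1.79 (standard error 0.10, 95% confidence interval 1.58 to 2.00, adjusted p = 2.0e-12, limma), and 92.4% of all tested genes had a lower one.

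ZFP36L1 (Entrez gene 677, chromosome 14, 68787655 to 68796243), a paralogue with the same tandem zinc fingers, was the most abundant of the 10 genes per kilobase of exon in both conditions. Its signal was 11089, 10343 and 11083 in DMSO and 15846, 16008 and 16024 with erlotinib. The erlotinib libraries were almost equal to each other, and all lay above DMSO. The log2 fold change was 0.56 (standard error 0.06, 95% confidence interval 0.43 to 0.69, adjusted p = 5.7e-08, limma), a 1.47-fold rise.

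ZFP36L2 (Entrez gene 678, chromosome 2, 43222402 to 43226606), the third paralogue, had a signal of 4585, 3877 and 4421 in DMSO and of 3666, 3533 and 3509 with erlotinib. The groups did not overlap, with DMSO library 2 nearest to the erlotinib libraries. The log2 fold change was -0.26 (standard error 0.07, 95% confidence interval -0.41 to -0.11, adjusted p = 0.0026, limma). Scaled to total counts it was -0.08 and did not pass (adjusted p = 0.288, limma). Of its 3693 exonic bases 826 are shared with an opposite-strand noncoding gene. Of the 6466 exonic bases of ZFP36L1, 512 are shared with a noncoding gene on the same strand. Neither noncoding gene was matched to a counted gene.

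The share of ZFP36 in the summed signal per kilobase of exon of the 3 genes was 5.50%, 7.32% and 5.85% in DMSO and 16.0%, 14.9% and 16.7% with erlotinib. ZFP36L2 supplied 38.4% ± 1.5 in DMSO and 23.7% ± 0.58 with erlotinib, and ZFP36L1 55.4% ± 0.57 and 60.5% ± 0.84 (SD, n = 3 each). The groups did not overlap for any of the 3 shares (exact two-sided permutation p = 0.1 each, the smallest possible). The summed signal per kilobase was 3027 ± 147 in DMSO and 4082 ± 44.9 after erlotinib (SD, n = 3 each), 1.35 times as high, without overlap (exact two-sided permutation p = 0.1). Scaled to total counts the ratio was 1.53. The size of these differences depends on the lengths used. The share of ZFP36 was higher by 9.63 percentage points with erlotinib, but by 3.75 with reads not divided by length and by 6.19 with canonical transcript lengths. With canonical lengths the share of ZFP36L1 was higher by 3.36 points in place of 5.07, and that of ZFP36L2 differed by -9.55 in place of -14.7. ZFP36L1 supplied most of the family's mRNA in both conditions.

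The 3′ UTRs of the set differed in AU-rich pentamers. The canonical transcript of ZFP36 holds 5 ATTTA in 708 bases of 3′ UTR (7.06 per kilobase), ZFP36L1 8 in 1871 bases (4.28) and IER5 10 in 3014 bases (3.32), against a median of 1.71 per kilobase over 12598 tested genes. ZFP36L2 has 2.61, MAFF 2.46 and IER5L 2.33 per kilobase, while EGR1 has 0.818 and IER2 has none. The nonamer TTATTTATT, the preferred site of ZFP36 proteins, occurs in ZFP36, ZFP36L1, ZFP36L2, IER5 and MAFF, and in 9.50% of tested genes. Genes with the nonamer were found both among the members that rose and among those that fell.

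Reported targets of ZFP36 proteins were found in both directions. Of 18 listed, 16 were tested, where 5 were lower (31.2%), 10 higher (62.5%) and 1 neither. Over all tested genes these shares were 35.4% lower and 35.3% higher. The median log2 fold change of the 16 was 0.41. CXCL1, a neutrophil-attracting chemokine, rose by 2.52 and the Notch ligand DLL4 by 2.45 on the log2 scale, the latter from a signal of only 8.95 in DMSO to 40.7. For DLL4 the log2 fold change was 1.75 without DMSO library 2, 3.13 without DMSO library 3 and 1.5 with a pseudocount of 10. CXCL8 rose by 2.20 and CXCL2 by 1.64. The largest falls were those of the cell cycle genes CCND1 (-3.23) and E2F1 (-2.88), followed by the angiogenic factor VEGFA (-1.15). TNF was listed at 0 in every library, and its transcript aligns to 6 alternate contigs in the same way.

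The partners of ZFP36 proteins in mRNA decay went both ways. The 15 tested genes were PABPC1 and genes of the CCR4-NOT complex, decapping and decay from the 5′ end. The CCR4-NOT gene CNOT3 was also listed but, with at most 6 reads in any library, was not tested. Its transcript aligns to 9 alternate contigs over at least 90% of its length at an identity of at least 97%. In this list 8 were lower (53.3%), 5 higher (33.3%) and 2 neither, beside 35.4% lower and 35.3% higher of all tested genes. The median log2 fold change was -0.20. At a threshold of 0.01, 6 were lower and 3 higher. CNOT9, which binds a conserved tryptophan-containing motif in decay factors, fell by 1.08 and the scaffold CNOT1 by 0.61. The exonuclease gene XRN1 rose by 0.48 and the deadenylase CNOT8 by 0.42. Among 5 other proteins that bind AU-rich elements, 4 were lower (80%) and 1 higher (20%). HNRNPD and ELAVL1 fell by 0.96 and 0.84 on the log2 scale, while TIA1, a translational repressor, rose by 1.02 (adjusted p at most 1.4e-09 for the 3, limma).

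MAFF encodes a small MAF protein, which lacks a transactivation domain and pairs with NRF or BACH factors. MAFF (Entrez gene 23764, chromosome 22, 38201994 to 38216511) had a signal of 873, 857 and 1030.7 in DMSO and of 399.6, 425 and 442 with erlotinib. Within groups the libraries lay close together, and the lowest DMSO library was far above the highest erlotinib library. The level was 2.18-fold lower with erlotinib, with a log2 fold change of -1.12 (standard error 0.10, 95% confidence interval -1.33 to -0.91, adjusted p = 4.1e-09, limma). In GENCODE 326 of the 5611 exonic bases of MAFF are shared with PLA2G6, a phospholipase gene on the opposite strand. PLA2G6 went from 108 ± 12.5 to 673 ± 56.5 (SD, n = 3 each, log2 fold change 2.64, adjusted p = 5.2e-13, limma), and what reads of 1 gene add to or take from the count of the other was not tested.

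MAFF and ZFP36L1 each have a full cAMP response element, TGACGTCA, before 1 of their annotated starts, which 1.85% of all windows hold. The 30 bases around it are shown because these genes moved in opposite directions, with the element in capitals. They are chr22:38201929-38201958, plus strand, and chr14:68793450-68793479, minus strand, of GRCh38.p14.
MAFF: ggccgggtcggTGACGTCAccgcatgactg
ZFP36L1: agtggaatgagTGACGTCAcagccgcgctc
The element lies at -54 to -47 from the start of MAFF and at -52 to -45 from the internal start of ZFP36L1. IER2 has the ETS motif CCGGAAG, found in 10.3% of windows, at -27 to -21 on the strand opposite to the gene. None of the windows read for IER5, IER5L or ZFP36 held a CArG box, GCGNGGGCG, TGACGTCA, CCGGAAG, the AP-1 motif TGANTCA (7.71% of windows) or TATAAA (11.5%).

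Among the relatives and partners of MAFF, 5 of 7 were higher (71.4%), 1 lower (14.3%) and 1 neither, beside 35.3% higher and 35.4% lower of all tested genes. The median log2 fold change of the 7 was 0.25. At a threshold of 0.01, 4 were higher. It was also 4 when DMSO library 1, DMSO library 3, erlotinib library 5 or erlotinib library 6 was left out. BACH2 rose by 1.41 and BACH1, a repressor of heme oxygenase and other antioxidant genes, by 0.70. NFE2L2, which encodes the antioxidant regulator NRF2, rose by 0.25 (adjusted p = 0.0056, limma). For NFE2L2 the groups overlapped, with DMSO library 2 at 4686 and erlotinib library 4 at 4673. NFE2L3 was the gene that fell (-0.37). The other small MAF genes differed from MAFF, with MAFG at 0.23 (adjusted p = 0.0161, limma) and MAFK at -0.02 (adjusted p = 0.818, limma).

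**Figure D3:**
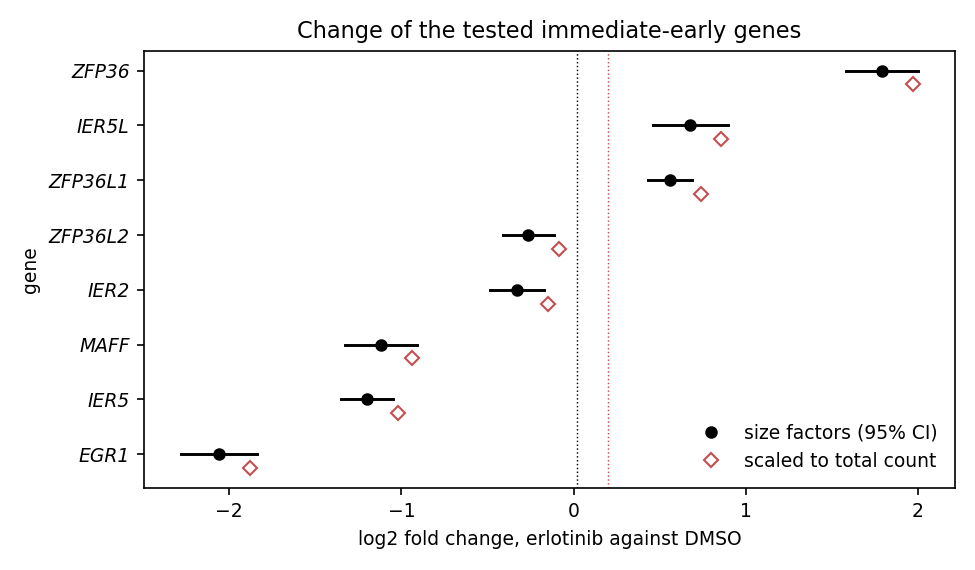
Log2 fold change with erlotinib of the 8 tested genes, with 95% confidence intervals from limma (black) and the value with libraries scaled to total counts (open diamonds); the dotted lines mark the median of all tested genes under each scaling (0.017 and 0.20). EGR1, at -2.06, and ZFP36, at 1.79, lie at the ends.

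The members were also set in order of their level, as mean signal per kilobase of exon. In DMSO the order was ZFP36L1 (1676), ZFP36L2 (1163), IER2 (1077), IER5 (670.0), IER5L (624), EGR1 (314), ZFP36 (187) and MAFF (164). The libraries of ZFP36L2 and IER2, of IER5 and IER5L, and of ZFP36 and MAFF overlapped, while the other neighbours were apart. With erlotinib it was ZFP36L1 (2468), IER5L (986), ZFP36L2 (967), IER2 (855), ZFP36 (647), IER5 (291), MAFF (75.2) and EGR1 (75.1), with overlap for IER5L and ZFP36L2 and for MAFF and EGR1. ZFP36 had thus passed IER5 and EGR1, and EGR1 had moved to the end of the detected genes. With the length of the canonical transcript in place of all exons, IER2 came before ZFP36L2 in DMSO and before IER5L with erlotinib, and MAFF before EGR1 in both.

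The members share a compact structure that the choice by name did not use. Their canonical transcripts have 1 to 3 exons, as 17.4% of tested genes do, against a median of 8. IER5 and IER5L have no intron. The median span of the 10 genes was 4353 bases, against 27909.5 for the tested genes. None of the 10 transcripts aligned elsewhere in the genome over 90% of its length at 97% identity, alternate contigs included.

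Beyond the 10 members, 20 other early genes were listed and 16 were tested. Of these 6 were lower (37.5%), 8 higher (50%) and 2 neither, beside 35.4% lower and 35.3% higher of all tested genes. Their median log2 fold change was 0.37. Scaled to total counts, 4 were lower and 10 higher. The orphan nuclear receptor NR4A2 rose from 48.6 ± 8.60 to 150.1 ± 3.98 and NR4A1 from 37.7 ± 25.0 to 85.3 ± 21.4 (SD, n = 3 each), log2 fold changes of 1.62 and 1.41 (adjusted p = 9.8e-07 and 0.0051, limma). For NR4A1, which had 10 reads in DMSO library 1 against 44 and 57 in the other DMSO libraries, the log2 fold change was 0.73 without that library (adjusted p = 0.0263, limma). NR4A3 was too low to test, with at most 11 reads in a library. The largest rises were those of KLF2 (2.97, from a signal of 12.9 in DMSO to 94.2), a transcription factor of the Krüppel-like family, and of RHOB, a small GTPase (1.98, from 1408 to 5564). KLF2 had 12, 5 and 19 reads in DMSO, and its log2 fold change was 2.42 without DMSO library 2, 3.38 without DMSO library 3 and 2.24 with a pseudocount of 10. The largest falls were those of KLF4 (-0.83) and CSRNP1 (-0.76). IER3 had at most 7 reads in any library, and its transcript aligns to 5 alternate contigs, so that low expression and reads lost to these copies cannot be told apart.

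**Figure D4:**
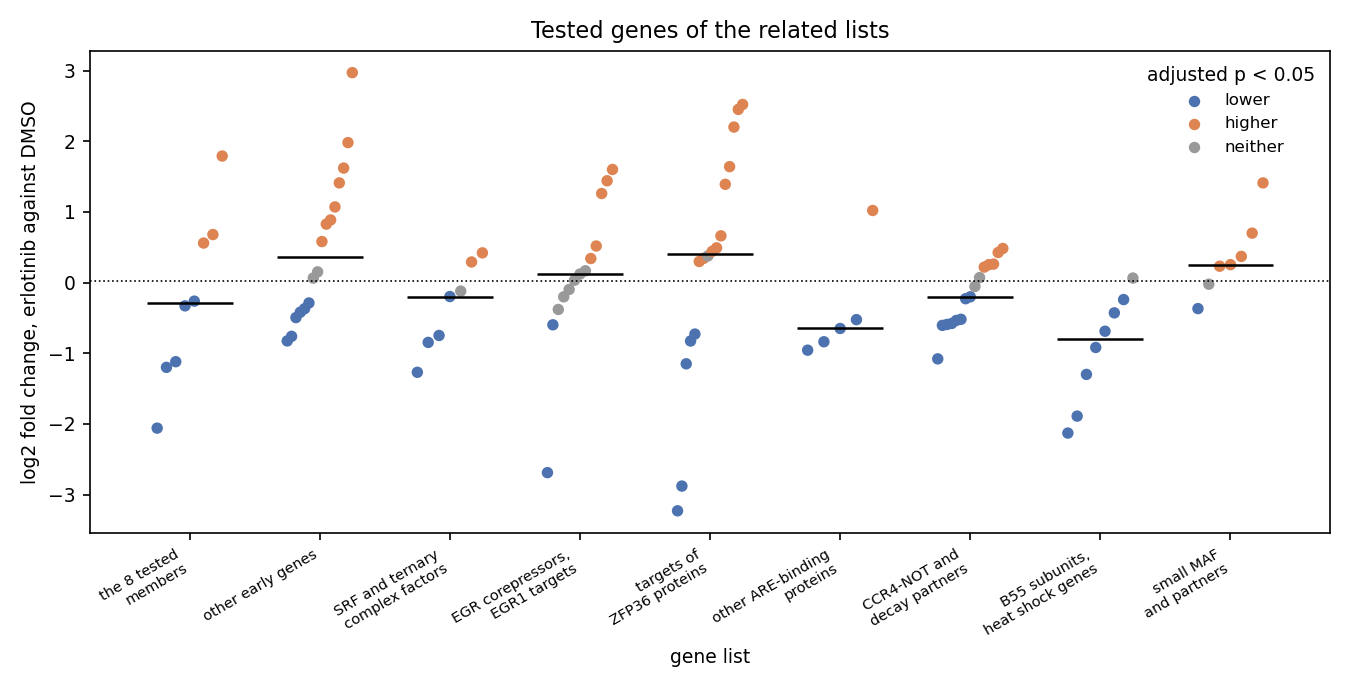
Log2 fold change with erlotinib of the 8 tested members and of the tested genes in 8 related lists, with a point per gene coloured by its call in limma at an adjusted p under 0.05, a bar at each median and a dotted line at the median of all tested genes (0.017). By these calls the members and most lists hold both lower and higher genes. The list of B55 subunits and heat shock genes has 7 lower and 0 higher, and BAG3, at 0.06, is neither.

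For EGR1, IER2 and ZFP36, the genes with the nearest profile were sought among 11067 others whose mean signal reached 100, by the Euclidean distance of log2 values centred on DMSO over the 6 libraries. Nearest to EGR1 were GPAT3 (distance 0.138, log2 fold change -2.11), CEP78 (0.157, -2.02) and PNP (0.159, -2.03). For IER2 they were LOC105371414 (0.0603, -0.31), UROS (0.0704, -0.30) and HSPBP1 (0.0811, -0.34). For ZFP36 they were PTPRM (0.0446, 1.79), ANKRD50 (0.117, 1.76) and ANK3 (0.151, 1.87). These profiles share the same 6 libraries and the same contrast, so they are given as a description.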

How the data were processed

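Per the labels and the study's methods, the authors aligned read pairs to GRCh38 using Bowtie2 2.3.4, assigned the uniquely mapped ones to genes using featureCounts 1.6.3 and ran DESeq2 1.18.1. The signal values the authors deposited are whole multiples of 1 step per library (100% within 0.001), that is, reads divided by a size factor, and the reads were recovered from them. Because Bowtie2 aligns without splicing, reads over junctions can be lost. Replicates are separate samples per the labels, which do not name separate cultures, so p-values may measure technical spread only. Replicates differed beyond counting error (chi-square over degrees of freedom 4.15 to 23.5), and no per-sample column was left unused.

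All genes whose mean signal reached 10 were fitted with limma 3.58.1 (R 4.3.3) on log2(signal + 1), two-sided, with Benjamini-Hochberg adjustment and a threshold of 0.05. Fold changes are on this scale, where the pseudocount pulls those of low genes towards 0. As differences of mean logs they can still exceed the fold of the means (NR4A1, DLL4 and KLF2). Shares were tested with exact permutation tests. Alternatives were DESeq2 1.42.0, edgeR 4.0.16 and limma-voom on the recovered reads, other scalings, pseudocounts and filters, a threshold of 0.01, and each library left out. The length of the canonical transcript was added after seeing the data. In simulated counts on 14222 genes for this comparison, limma recovered 72 of 84 genes changed by 1 log2 unit and 110 of 113 changed by 2. Of its 191 calls 9 were false. Few genes were changed in the simulation, against 70.7% called in the data. Its size factors were the true ones, so it does not test the scaling. Lengths, exons and UTRs are from GENCODE 44, positions and promoters from RefSeq (GRCh38.p14), and copies from minimap2 2.31-r1302. The genes named are the members, the 2 lowest and 2 highest called genes of each list, and the nearest profiles. Others named from the lists, the markers and PLA2G6 were chosen after their values were seen. The members and lists were chosen with earlier results of these data known. The values of some genes in these lists are not reported here, though they are in the counts, sums and medians.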

Additional observations from a re-analysis of the deposited data

How the results depend on the processing

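EGR1, IER5, IER5L, MAFF, ZFP36 and ZFP36L1 kept their direction and call under all 16 alternatives, with log2 fold changes of -2.12 to -1.88, -1.23 to -1.02, 0.51 to 0.86, -1.17 to -0.94, 1.73 to 1.97 and 0.53 to 0.74. Scaling to the total count moved the median of all tested genes from 0.017 to 0.20, with 3952 genes lower and 6182 higher, and left 3 members lower in place of 5, since IER2 and ZFP36L2 no longer passed. On the recovered reads edgeR called 4941 genes lower and 5085 higher, and DESeq2 4934 and 4949. Leaving out 1 library at a time gave 4721 to 5080 lower and 4559 to 5127 higher genes. NAB2 passed only without DMSO library 2 (log2 fold change -0.26, adjusted p = 0.0162, limma). In percentage points, with reads not divided by length the share of IER2 moved by -2.07, IER5 by -17.4, ZFP36 by 3.75, ZFP36L1 by 6.77 and ZFP36L2 by -10.5, in place of -5.36, -14.7, 9.63, 5.07 and -14.7. With the canonical transcript length IER5 moved by -11.95, IER5L by 17.4 in place of 20.1, ZFP36 by 6.19, ZFP36L1 by 3.36 and ZFP36L2 by -9.55. These differences follow from the lengths used, and no share changed direction. The 3 libraries a group and the depth limit what can be said of EGR2 and EGR3. No paired analysis was possible because the erlotinib columns are numbered 4 to 6 and carry none of the numbers in the labels.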
